A study of Mus musculus with 26 samples.

Results

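DN2 thymocytes were compared with DN1 thymocytes across 18194 genes, as the difference between the mean log2 expression on 3 DN2 arrays and that on 3 DN1 arrays. The 6 arrays were chosen by the population in their titles, out of 26 arrays from 8 populations in a series on DNA methylation and the commitment of blood progenitors. Both groups were thymocytes of C57/Bl6 mice that the labels give as male and aged 2 months, and no treatment or transgene is named for either. The labels do not describe how the populations were sorted. Levels in CLP (3 arrays, whose titles read CLP while another label reads ALP) and DN3 (3 arrays), also of C57/Bl6 mice of that age, are given beside the comparison to show the stages before and after it. Nothing in the labels says that replicates came from separate mice, so the p-values measure only the spread between samples, which may be technical. In the fit behind the reported calls, that spread is pooled over all 26 arrays of the 8 populations. For genes whose mean over the 6 DN1 and DN2 arrays together was above log2 6, the median SD was 0.319 in DN1. It was 0.213 in DN2, 0.284 in DN3 and 0.175 in CLP. For genes that vary more in DN1 than elsewhere, the pooled spread can therefore understate the error of the comparison.

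T cells develop in the thymus from blood-borne progenitors that pass through the stages DN1, DN2 and DN3, all of which lack the surface proteins CD4 and CD8. DN1 cells carry Kit and CD44 and can still give rise to other blood lineages. CD25, the product of Il2ra, appears at DN2, and the zinc finger factor Bcl11b is switched on as cells commit to the T lineage under Notch signalling. Rearrangement of T cell receptor genes begins around this time, and the pre-T cell receptor is assembled at DN3.

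Levels are on a log2 scale, on which a difference of 1 is a 2-fold change. The lowest value of the table, 2.17, recurs on every array and is read as its floor. A group whose arrays all lie within 1 of it has no measured level, and differences from it are given as "at least". A probe set can also have a lowest level of its own: values that recur exactly on other arrays made up 21.1% of those from 4 to 5 but 0.256% of those from 10 to 12. Differences are therefore also given as "at least" where 2 or more arrays of the lower group hold such a value. Genes passed, rose or fell where the adjusted p of the limma fit over all 26 arrays was under 0.05. Array values are always given in the order of replicates 1, 2 and 3, DN1 first.

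The markers of the DN2 stage separated the 2 groups. Bcl11b stood at 9.18, 4.72 and 2.89 in DN1 and at 14.07, 13.87 and 13.80 in DN2. All DN2 arrays lay far above all DN1 arrays, and the DN1 arrays were spread widely, with replicate 1 well above the others. The difference was 8.31 ± 0.95 (SE, adjusted p = 7.37e-06), the largest rise of the comparison among the genes named, and the other 3 probe sets of the gene rose too. The SE of 0.95 pools the spread of all populations, while the SD of Bcl11b was 3.23 in DN1 and 0.14 in DN2. With the 6 arrays fitted alone, the adjusted p of Bcl11b was 0.147. Il2ra read 8.53, 7.05 and 6.53 in DN1 against 13.56, 13.19 and 12.67 in DN2, again with no overlap, a rise of 5.77 ± 0.32 (adjusted p = 3.51e-10), which also passed with the 6 arrays alone. Il2ra was already above the floor on the DN1 arrays, whereas its CLP mean was 2.17. Kit, the receptor for stem cell factor that both stages carry, lay between 11.46 and 12.22 on all 6 arrays, and its difference of -0.30 ± 0.24 did not pass (adjusted p = 0.624). Cd44 was 12.49, 12.37 and 12.58 in DN1 and 11.17, 11.40 and 11.06 in DN2, a fall of 1.27 ± 0.26 on the log2 scale (adjusted p = 0.00368) without overlap.

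Because the series is about DNA methylation, which in mammals falls on CpG dinucleotides, the 250 bases before the start of 4 genes are shown, in RefSeq's sequence for build GRCm38.p6. They are the 2 genes that mark the DN2 stage and a pair of granule protein genes that fell. Capitals mark each CpG.

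Bcl11b (chr12:108003415-108003664, minus strand): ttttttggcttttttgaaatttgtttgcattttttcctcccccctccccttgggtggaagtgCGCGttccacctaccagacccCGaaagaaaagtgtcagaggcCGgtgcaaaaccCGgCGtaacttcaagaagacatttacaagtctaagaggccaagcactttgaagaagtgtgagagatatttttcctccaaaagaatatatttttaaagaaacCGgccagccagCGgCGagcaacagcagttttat
Il2ra (chr2:11642542-11642791, plus strand): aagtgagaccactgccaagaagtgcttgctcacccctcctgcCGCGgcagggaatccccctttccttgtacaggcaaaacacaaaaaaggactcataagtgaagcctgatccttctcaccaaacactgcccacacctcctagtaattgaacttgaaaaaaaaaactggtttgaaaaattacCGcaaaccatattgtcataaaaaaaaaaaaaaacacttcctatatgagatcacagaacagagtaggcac
Mpo (chr11:87793534-87793783, plus strand): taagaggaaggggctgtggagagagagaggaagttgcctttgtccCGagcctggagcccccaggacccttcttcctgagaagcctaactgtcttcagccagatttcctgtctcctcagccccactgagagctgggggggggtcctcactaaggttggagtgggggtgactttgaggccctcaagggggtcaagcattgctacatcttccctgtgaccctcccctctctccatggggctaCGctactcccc
Prtn3 (chr10:79879417-79879666, plus strand): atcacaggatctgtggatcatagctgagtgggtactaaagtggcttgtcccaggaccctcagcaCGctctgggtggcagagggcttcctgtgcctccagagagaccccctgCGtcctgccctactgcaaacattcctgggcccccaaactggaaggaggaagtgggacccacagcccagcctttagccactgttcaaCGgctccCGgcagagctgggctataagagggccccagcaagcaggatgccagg

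The stretch before Bcl11b holds 9 CpG, against 3 before Il2ra, 2 before Mpo and 4 before Prtn3. The median over the 32851 promoter stretches of this length in the table is 6. TGGGAA, the core that the Notch effector Rbpj binds, was searched on both strands. It was in none of these 4 stretches (0 matches each), in 21.6% of all stretches, and in 2 of the 10 Notch target genes with a stretch in the table. Methylation was not measured on these arrays.

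Some arrays went against the sex label or stood apart, in ways that mostly cross the groups. Xist, an RNA made from the silenced X chromosome of females, was at 12.21, 2.18 and 13.59 in DN1 and at 2.19, 12.99 and 6.30 in DN2, so 4 of the 6 arrays labelled male carried it above the floor. Eif2s3y, a Y chromosome gene, was above 12 on 4 of the 6 arrays, and near the floor on DN1 replicate 3 and DN2 replicate 2. Genes of the immediate early and stress response (34 measured), a class that handling of cells can induce quickly, had a mean level of 10.52, 12.36 and 12.13 in DN1 and 9.31, 9.57 and 11.49 in DN2. The level at the 3 prime end of Gapdh minus that at its 5 prime end, a sign of RNA quality, ran from 1.68 to 4.63 in DN1 and from 3.37 to 4.17 in DN2. The 18S ribosomal RNA controls averaged 8.59, 8.57 and 10.32 in DN1 and 8.04, 7.77 and 8.21 in DN2. They thus separated the groups, and what part this has in the differences was not tested. DN1 arrays correlated with each other at 0.986 to 0.991 and DN2 arrays at 0.992 to 0.994. The SD was larger in DN1 for 68.3% of the 8376 genes whose mean over the 6 arrays together was above 6.

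Of the 18194 genes, 1475 passed (8.11%), with 726 higher in DN2 (3.99%) and 749 lower (4.12%). In 52 of the higher genes and 28 of the lower genes, both groups lay near the floor on every array, so neither had a measured level. The rises were smaller than the falls: 364 of the higher genes (2.0% of all genes) and 544 of the lower genes (2.99%) differed by at least 1, and 30 (0.165%) and 35 (0.192%) by at least 4. Among 8638 genes with a mean over 6 in either group, 594 were higher and 601 lower. The DN1 and DN2 arrays did not overlap in 651 of the 726 higher genes and in 669 of the 749 lower genes. A lack of overlap was thus the rule among genes that passed, and adds little to the call of a single gene. With DN2 replicate 2 left out, 481 genes were higher and 571 lower. When the 4 arrays with Xist were left out, DN1 replicate 2 and DN2 replicate 1 remained. The lone arrays were then assumed to vary like the other populations, and 549 genes were higher and 862 lower, 538 of them among the 1475 genes that passed. Of 129 genes picked out by the rule for naming genes that had passed, 77 passed in the same direction there and 2 changed sign, as did 50 of the 1475. Among the genes described below, Gata3, Tcf12, Id3, Nfatc1, Notch3, Mfng, Igf1r, Fyn, Icos, Cd27, Rag2, Prom1, Cd33, Il7r, Stat5a, Il6st, Cdc6, Plk1, Prc1, Ccne2, Hells, Mbd2, Ctcf, Tet2, Oas2, Cd44, Spi1 and Mpo no longer passed. The difference moved by over 1.5 times for Id3 (-0.96), Nfatc1 (-0.18), Icos (-1.37), Cd27 (-0.78), Prom1 (0.29), Ccne2 (0.91), Hells (0.52) and Tet2 (-0.72), and, with the call held, for Egr3 (-7.94), Rag1 (3.80), Gzma (2.31), Procr (-4.70), Ccnd1 (-5.24), Zfp36 (-4.66), Ifit3 (-3.24) and Irf1 (-1.61), and for Ikzf2 (1.40). With the 6 arrays fitted on their own, 116 genes were higher and 157 lower, and 41 of the 129 passed. Among the genes described here, those were Esm1, Strip2, Fam169b, Fgf3, Sytl2, Il2ra, Khdc1a, Zbtb16, Themis, Mpp4, Csf1r, Prtn3, Glis3, Klrd1, Flt3, Adgrl4, Ddx4, Trat1, Cd7, Lig4, Meis1, Lmo2, Hoxa9, Cd33, Ms4a3, Csf2rb, Pou2af1, Aqp11, Car2, Il7r, Il1r1, Rrm2, Ctcf, Cd44 and Mpo. With the probe sets of a gene averaged, the difference moved by over 1.5 times for Nebl (3.06), Egr3 (-2.08), Nfatc1 (-0.47), Notch3 (1.11), Icos (-1.23), Stat5a (1.11) and Il6st (-0.85), besides the genes for which the value is given below. With array weights, Gata3, Ikzf2, Tcf12, Egr3, Mfng, Fyn, Rag2, Cpa3, Il7r, Mbd2, Tet2, Oas2, Ifit3, Irf1, Bank1, Pdgfrb, Mcl1, Sqle and Hsd17b7 no longer passed.

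**Figure D1:**
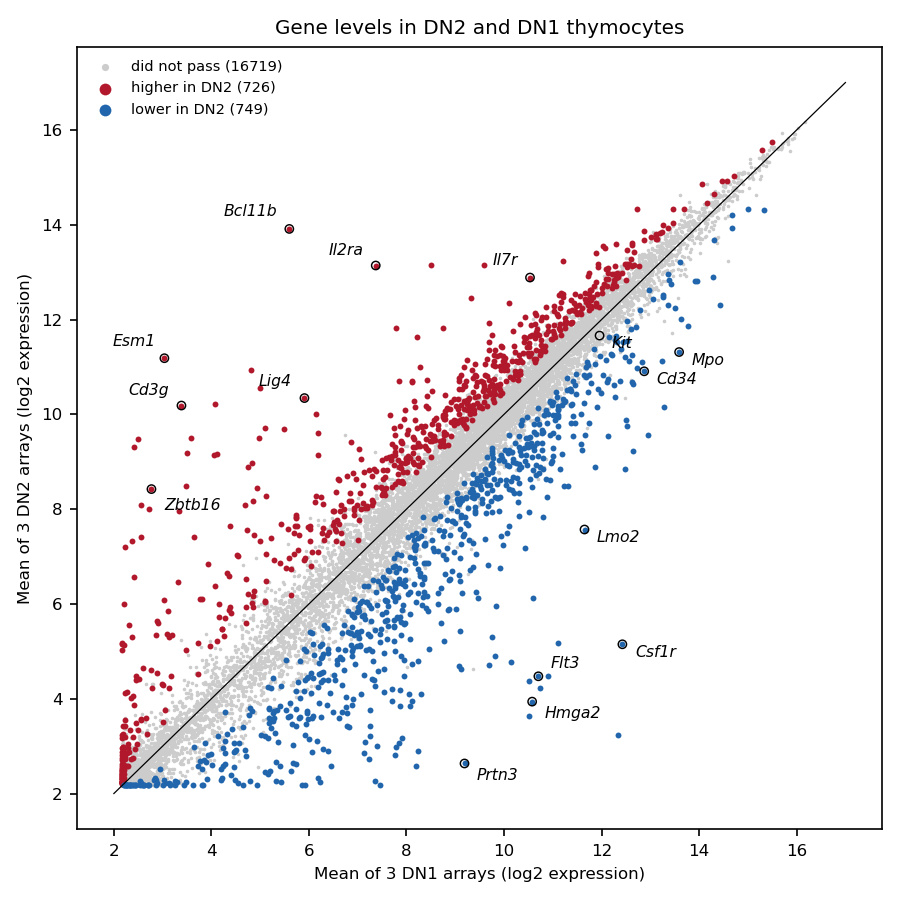
Mean log2 expression of each of 18194 genes on the 3 DN1 arrays (horizontal axis) and the 3 DN2 arrays (vertical axis), with the line of equal levels. Red points are the 726 genes higher in DN2 and blue points the 749 lower; Bcl11b and Il2ra lie far above the line, Csf1r and Prtn3 far below it, and Kit beside it.

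The 15 largest rises mixed T cell genes with genes of other known roles. Esm1, which encodes a secreted proteoglycan, rose by 8.15 ± 0.59 from 2.45, 4.34 and 2.32 to 11.19, 11.30 and 11.06. Strip2 rose by at least 7.0 and Fam169b by at least 6.91, both from near the floor on every DN1 array to between 9.16 and 9.81 in DN2. In Fgf3, a fibroblast growth factor, 5.79, 4.34 and 4.34 in DN1 became 10.78, 11.34 and 10.70 in DN2, a rise of at least 6.12 (SE 0.53). The rule that chose the 15 largest rises and 15 largest falls admitted only genes without overlap. Its absence in any of them, Bcl11b, Il2ra, Hmga2 and Flt3 included, is therefore not a result. Sytl2, a partner of Rab27 in vesicle transport, rose by at least 5.90, Khdc1a by 5.68, Mpp4 by at least 5.28 and Nebl, a nebulin-like actin-binding protein, by 5.09. The adjusted p of these 8 genes lay between 2.00e-18 and 1.83e-07. DN1 replicate 1 was the highest DN1 array in 9 of the 15 largest rises and in 337 of the 726 higher genes.

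**Figure D2:**
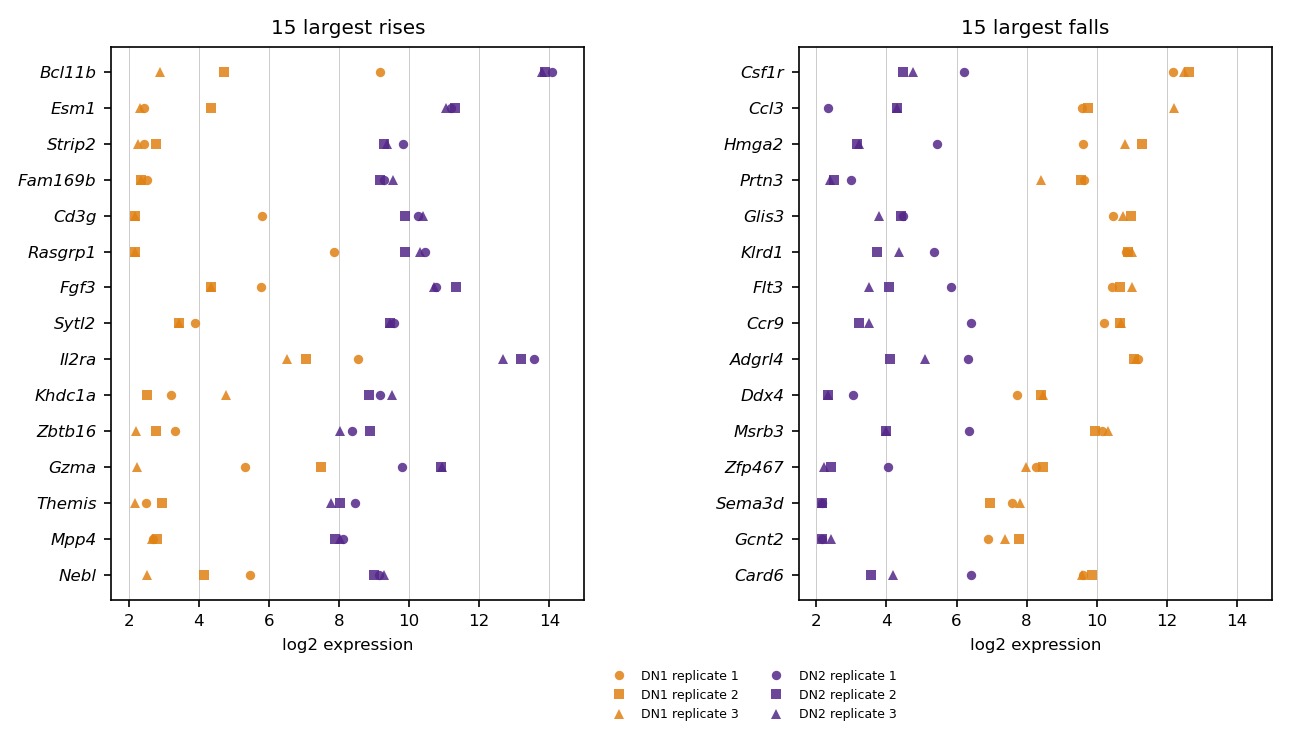
Log2 expression (horizontal axis) of the 15 genes with the largest rise (left) and the 15 with the largest fall (right) on each array, DN1 in orange and DN2 in purple, with a symbol for each replicate. The groups do not overlap in any of the 30 genes, by the rule that chose them; DN1 replicate 1 is often the DN1 array nearest to DN2 on the left, and DN2 replicate 1 the DN2 array nearest to DN1 on the right.

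Of 27 T lineage transcription factors measured, 4 rose (14.8%, beside 3.99% of all genes) and 3 fell (11.1%, beside 4.12%). The median difference was -0.02 beside 0 over all genes. These shares of all genes stand beside every list count below. Gata3, which is needed from the earliest T cell stages on, read 8.63, 8.07 and 8.22 in DN1 and 9.61, 9.89 and 9.75 in DN2. Its groups did not overlap, and the rise was 1.44 ± 0.31 (adjusted p = 0.00545). The E protein gene Tcf12 (0.60) and Ikzf2, which encodes the Ikaros family member Helios (0.85), rose by less. Their calls were lost without DN1 replicate 2 (0.53 and 0.72), DN1 replicate 3 (0.68 and 0.71) or DN2 replicate 1 (0.54 and 0.69), and that of Tcf12 also without DN1 replicate 1 (0.60) or DN2 replicate 3 (0.54). Among the factors that fell, Id3, an inhibitor of E proteins, went from 5.23, 3.48 and 3.85 to 2.52, 2.17 and 2.17, at least 1.90 lower (adjusted p = 0.00035). Egr3 was at least 4.17 lower (SE 1.14, adjusted p = 0.0269), but its arrays overlapped, with 4.89, 10.11 and 9.34 in DN1 and 2.17, 2.17 and 7.49 in DN2. Without DN1 replicate 2 or 3 or DN2 replicate 1 or 2 its call was lost, at -3.17, -3.55, -3.28 and -3.28. Nfatc1, a calcium-regulated factor, fell by 1.16 on the log2 scale, and was at -0.68 (adjusted p = 0.159) without DN1 replicate 3, -1.12 without DN2 replicate 2 and -1.06 without DN2 replicate 3. With DN1 replicate 2 or DN2 replicate 1 left out, 2 factors of the list rose, and with DN1 replicate 3 or DN2 replicate 2 left out, 1 fell, as without the arrays with Xist.

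Of 23 Notch receptors and modifiers measured, 1 rose and 1 fell (4.35% each), shares near those of all genes. Notch1, the receptor that drives T cell commitment, was 13.62, 13.45 and 14 in DN1 and 13.27, 13.39 and 13.30 in DN2. The difference of -0.37 ± 0.28 did not pass (adjusted p = 0.566). The gene that rose was Notch3 and the one that fell Mfng, a fringe glycosyltransferase that modifies Notch, and the median of the list was -0.17. Notch3 stood at 6.31, 6.72 and 5.43 in DN1 and at 8.75, 7.89 and 8.18 in DN2, a rise of 2.12 ± 0.38 (adjusted p = 0.00101) with no overlap. Mfng fell by 0.98 on the log2 scale (adjusted p = 0.0276), a call lost without DN1 replicate 1 (-0.82) or 3 (-1.06) or DN2 replicate 1 (-0.97) or 3 (-0.76).

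Notch target genes went different ways. Of 14 measured, Il2ra, Notch3 and the cyclin gene Ccnd3 rose and the growth factor receptor gene Igf1r fell, with a median of -0.04. Averaged over its probe sets, Igf1r was at -0.45 and did not pass. Ccnd3 was 9.39, 8.84 and 9.34 in DN1 and 10.63, 11.50 and 10.88 in DN2, a rise of 1.82 ± 0.21 (adjusted p = 8.50e-06), but at 0.31 it did not pass when its probe sets were averaged. Hes1, a repressor switched on directly by Notch, was at 10.17, 9.61 and 10.98 in DN1 and at 9.41, 9.55 and 9.30 in DN2. It differed by -0.83 ± 0.32 and did not pass (adjusted p = 0.143). Ptcra, the pre-T cell receptor chain, was low on all 6 arrays, at 2.20, 2.59, 2.18, 3.44, 2.66 and 2.72. Its difference did not pass (adjusted p = 0.157), and its DN3 mean was 12.81.

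Genes of the CD3 complex and of receptor signalling rose in part, Ptcra not among them. Of 24 measured, 7 rose and 1 fell, and the median difference was 0.50 beside 0 over all genes. Cd3g, a CD3 chain, was at 5.81, 2.17 and 2.17 in DN1 and at 10.27, 9.90 and 10.39 in DN2. Only DN1 replicate 1 was above the floor, and the rise was at least 6.80 (SE 0.57, adjusted p = 1.20e-07). Cd3e, another CD3 chain, was near the floor on all DN1 arrays and at 3.53, 2.59 and 4.14 in DN2, at least 1.23 higher (adjusted p = 0.00136). Rasgrp1, which passes the receptor signal to Ras, had the pattern of Cd3g. It read 7.85, 2.17 and 2.17 in DN1 and 10.46, 9.89 and 10.31 in DN2, a rise of at least 6.16 (SE 0.89, adjusted p = 0.000103), or 2.04 when its 4 probe sets were averaged. Themis, a signalling protein of thymocytes, rose by at least 5.53 from 2.50, 2.96 and 2.17 to 8.45, 8.03 and 7.76, or by 3.03 over its averaged probe sets. Trat1, an adaptor of the receptor complex, went from 8.45, 7.98 and 8.21 to 11.73, 11.44 and 11.70, with a rise of 3.41 ± 0.13 (adjusted p = 2.37e-12). The Src family kinase gene Fyn fell by 0.93 on the log2 scale (adjusted p = 0.0109), and was at -0.81 (adjusted p = 0.0634) without DN1 replicate 3.

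T cell surface proteins moved both ways, 6 of 26 up and 6 down (3 without the arrays with Xist), with a median of 0. Thy1, the classical marker of mouse T cells, read 5.52, 3.98 and 2.87 in DN1 and 9.63, 9.24 and 8.65 in DN2, a rise of 5.05 ± 0.45 (adjusted p = 2.45e-07). All DN2 arrays were above all DN1 arrays. Ly6d, a marker of lymphoid progenitors, rose by 1.85 ± 0.19 and Slamf6 by 1.94 ± 0.32. Cd7 fell by 4.19 ± 0.33 on the log2 scale, from 8.82, 7.86 and 8.23 to 4.95, 3.51 and 3.86 (adjusted p = 5.87e-08), again without overlap. The costimulatory receptors Icos and Cd27 fell by 2.58 and 1.40 on the log2 scale.

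Of 14 genes of antigen receptor gene recombination, 3 rose and 0 fell, with a median of 0.05. Lig4, the ligase that seals the broken ends, was at 6.50, 5.51 and 5.71 in DN1 and at 10.36, 10.32 and 10.34 in DN2. The DN2 arrays were nearly equal and far above DN1, with a difference of 4.44 ± 0.30 (adjusted p = 6.34e-09). Rag1 and Rag2 encode the recombinase that cuts the DNA. Rag1 went from 7.79, 6.06 and 7.23 to 9.86, 9.03 and 8.89 (2.23 ± 0.43, adjusted p = 0.00193), and Rag2 from 7.18, 6.42 and 6.27 to 8.43, 8.92 and 8.52 (2.00 ± 0.42, adjusted p = 0.00412). Neither gene's groups overlapped. With the mean level of the immediate early genes as a covariate, Rag1 (1.47) and Rag2 (1.36) no longer passed. Dntt, the polymerase that adds bases at the joints, was high on all 6 arrays, between 13.31 and 14.03, and its difference of -0.61 ± 0.23 did not pass (adjusted p = 0.136).

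**Figure D3:**
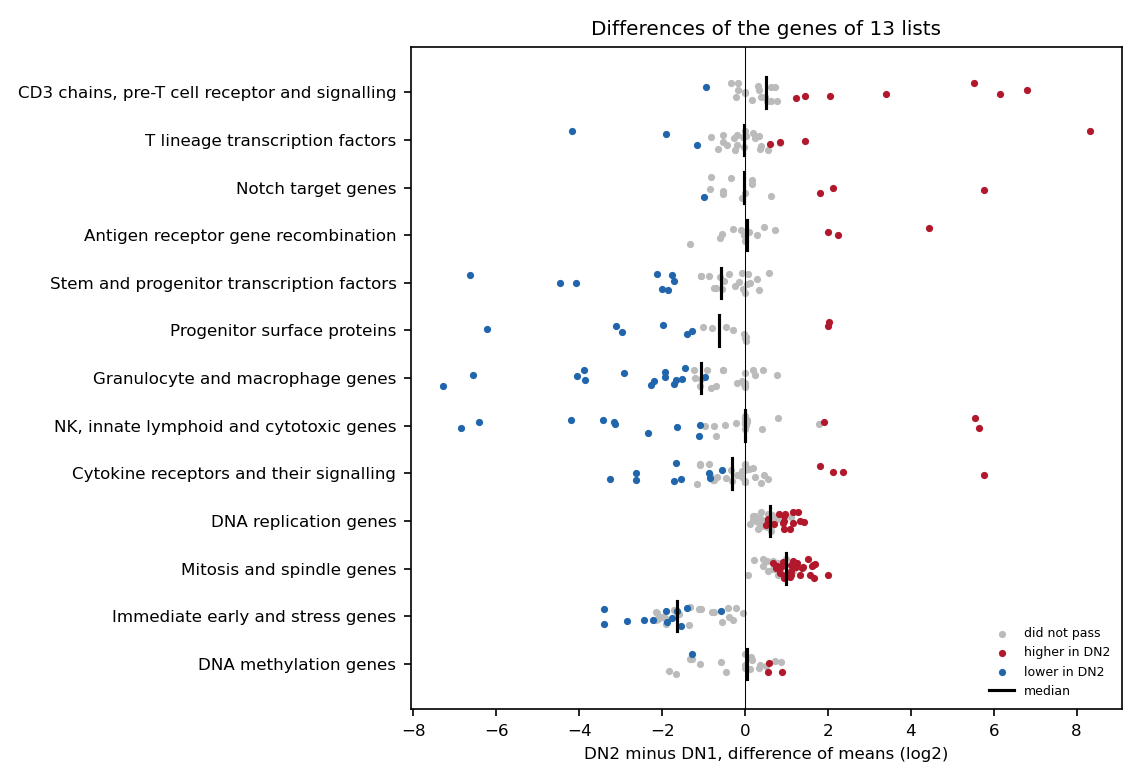
Difference of means, DN2 minus DN1 on the log2 scale (horizontal axis), for each measured gene of 13 lists (rows), coloured by whether it passed, with the list's median as a black bar. The replication and mitosis genes lie to the right of 0 and the granulocyte, stem cell factor and immediate early lists reach far to the left, while the lists of T lineage factors and Notch targets have medians of -0.02 and -0.04.

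Transcription factors of stem and progenitor cells fell in part. Of 28 measured, 8 fell and 0 rose, with a median of -0.58. Hmga2, a chromatin protein of fetal and stem cells, was at 9.62, 11.30 and 10.81 in DN1 and at 5.45, 3.15 and 3.21 in DN2. It fell by 6.64 ± 0.62 on the log2 scale (adjusted p = 4.54e-07), or by 4.38 over its averaged probe sets. Meis1, a partner of Hox proteins, went from 10.19, 10.91 and 10.68 to 6.58, 5.68 and 6.11, a difference of -4.47 ± 0.31 (adjusted p = 6.55e-09). The homeobox gene Hoxa9 fell by 2.12 on the log2 scale from a mean of 14.43, or by 1.22 over its averaged probe sets. Lmo2, a bridging protein of early blood cell factors, fell by 4.08 ± 0.21 on the log2 scale, from 11.93, 11.61 and 11.40 to 7.82, 7.61 and 7.28 (adjusted p = 1.89e-10). In each of these 4 genes all DN2 arrays were below all DN1 arrays. Spi1, which encodes the myeloid and progenitor factor PU.1, was at 7.04, 7.14 and 7.44 in DN1 and at 5.78, 5.60 and 4.69 in DN2, a fall of 1.85 ± 0.34 on the log2 scale (adjusted p = 0.00123). Lyl1, which works in complexes with Lmo2, stayed between 10.27 and 11.33 on all 6 arrays. Its difference of -0.50 ± 0.30 did not pass (adjusted p = 0.389).

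Surface proteins of progenitors fell in 6 of 16 cases and rose in 2 (1 without the arrays with Xist), with a median of -0.63. Flt3, the cytokine receptor of early lymphoid progenitors, was at 10.44, 10.65 and 11.02 in DN1 and at 5.85, 4.07 and 3.51 in DN2. The fall was 6.23 ± 0.40 on the log2 scale (adjusted p = 3.23e-09), with no overlap. Cd34 fell by 1.97 on the log2 scale to nearly equal DN2 values (10.90, 10.91 and 10.91), and Cd33 and Procr, the receptor of protein C, by 3.10 and 2.98. The integrin gene Itga2b (CD41) rose by 2.01 ± 0.41 and Prom1 by at least 2.03.

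Genes of granulocytes and macrophages made up the list with the highest share of falls among the 27 lists: 15 of 35 measured fell, 0 rose, and the median was -1.05. Csf1r, the receptor for macrophage colony-stimulating factor, read 12.17, 12.62 and 12.50 in DN1 and 6.20, 4.48 and 4.76 in DN2. It fell by 7.28 ± 0.41 on the log2 scale (adjusted p = 4.73e-10), the largest fall among the genes named. Prtn3, a granule protease, went from 9.63, 9.54 and 8.40 to near the floor in DN2, at least 6.56 lower (adjusted p = 4.68e-12). Ms4a3, a membrane protein of granulocyte-macrophage progenitors, was at 7.65, 7.40 and 6.37 in DN1 and near the floor in DN2, at least 4.06 lower. Csf2rb, the shared chain of the receptors for GM-CSF and IL-3, fell by 3.87 ± 0.23 on the log2 scale, or by 2.24 over its averaged probe sets. Mpo, the myeloperoxidase of granules, was at 13.63, 13.53 and 13.61 in DN1 and remained well above the floor in DN2 at 11.31, 11.41 and 11.22. Its groups did not overlap, and the difference was -2.28 ± 0.61 (adjusted p = 0.0226). Without any one of the arrays except DN1 replicate 2 its adjusted p was over 0.05, at 0.0543 to 0.0661, with differences of -2.23 to -2.33. The mean level of the list was 7.02, 6.87 and 6.89 in DN1 and 5.51, 5.48 and 5.42 in DN2. In bulk samples, fewer cells of a type and less RNA per cell cannot be told apart.

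Natural killer, innate lymphoid and cytotoxic genes were lower in 10 of 32 cases and higher in 3. Klrd1, which encodes the receptor CD94, stood at 10.85, 10.88 and 11 in DN1 and at 5.37, 3.74 and 4.35 in DN2, a fall of 6.42 ± 0.41 on the log2 scale (adjusted p = 2.36e-09). The chemokine gene Ccl3 read 9.57, 9.75 and 12.19 in DN1 and 2.33, 4.30 and 4.30 in DN2, and the related chemokine gene Ccl4 was at least 3.44 lower. Zbtb16, which encodes the innate T cell factor PLZF, went the other way, from 3.32, 2.78 and 2.22 to 8.37, 8.88 and 8.02. The rise was 5.65 ± 0.45 (adjusted p = 6.44e-08), and its other 2 probe sets rose as well. Gzma, which encodes granzyme A, rose by 5.54 ± 0.75 (adjusted p = 5.08e-05) from widely spread DN1 values of 5.30, 7.49 and 2.23 to 9.80, 10.90 and 10.94. With the 4 arrays with Xist left out, its difference was 2.31. Of the 32 genes, 11 had a mean within 1 of the floor in both groups. Ncr1, Klrk1, Il2rb, Tbx21 and Prf1 of mature natural killer cells were among them, named after their values were seen. The mean level of the list was 5.69 to 5.91 in DN1 and 5.14 to 5.22 in DN2.

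Cytokine receptors and their signalling genes fell in 9 of 39 cases and rose in 4, with a median of -0.31. Il7r, the receptor that supports early lymphocytes, was at 10.79, 10.79 and 10.02 in DN1 and at 13.07, 12.85 and 12.74 in DN2. All DN2 arrays were higher, by 2.35 ± 0.71 in the mean, but the adjusted p was 0.0485 and rose to 0.0694 to 0.152 when any one of the 6 arrays was left out. Stat5a, which acts below this receptor, rose by 1.81 ± 0.31 (adjusted p = 0.000724), from 5.94, 6.14 and 6.79 to 7.97, 8.45 and 7.90. Receptors of inflammatory cytokines were among those that fell. Il1r1 fell by 3.26 ± 0.35 on the log2 scale (1.63 over its averaged probe sets), Il1r2 by at least 2.62, and Il6st, the shared chain gp130, by 1.71. With a single array left out, 2 members rose unless it was DN1 replicate 3. Without the arrays with Xist, 1 rose and 4 fell.

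Homing molecules fell in 7 of 35 cases and rose in 1 (4 and 3 without the arrays with Xist). Ccr9, the receptor for a chemokine of the thymus and gut, was at 10.20, 10.65 and 10.68 in DN1 and at 6.41, 3.22 and 3.50 in DN2. The fall was 6.13 ± 0.55 on the log2 scale (adjusted p = 2.60e-07), or 2.36 over its averaged probe sets. In DN3 the mean was back at 11.96. Itga4, the chain of an integrin that binds Vcam1, rose by 1.52 ± 0.22, from 12.40, 11.88 and 11.81 to 13.41, 13.52 and 13.70 (adjusted p = 0.000118), and 3 of its other 4 probe sets rose as well. Among the other largest falls of the comparison were Glis3, a zinc finger factor (-6.50 ± 0.36), Adgrl4, an adhesion receptor (-5.94 ± 0.32), and Ddx4, a germ cell helicase (at least 5.63 lower). DN2 replicate 1 was the highest DN2 array in 12 of the 15 largest falls and in 334 of the 749 lower genes.

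Many genes of DNA replication and mitosis rose. Of 43 mitosis and spindle genes, 28 rose and 0 fell, with a median of 1.0. Of 38 replication genes, 16 rose and 0 fell, with a median of 0.60, and every measured gene of both lists had a positive difference. Plk1, a kinase of mitosis, was at 9.02, 8.26 and 8.04 in DN1 and at 9.82, 10.37 and 10.19 in DN2, a rise of 1.68 ± 0.35 (adjusted p = 0.00371). Prc1, which bundles spindle microtubules, went from 9.50, 9.83 and 8.88 to 11.08, 11.06 and 11.08 (1.67 ± 0.26, adjusted p = 0.000271). For Rrm2, a subunit of the enzyme that makes DNA building blocks, 11.96, 12.25 and 12.01 became 13.70, 13.50 and 13.31, a rise of 1.43 ± 0.18 (adjusted p = 1.94e-05). The groups did not overlap in these 3 genes. Cdc6, which loads the replicative helicase, rose by 1.34 ± 0.22. Mean levels of the mitosis list were 10.27, 10.21 and 10.21 in DN1 against 11.15, 11.34 and 11.28 in DN2. The count of mitosis genes that rose was 18 without DN1 replicate 3, 16 without DN2 replicate 2 and 2 without the 4 arrays with Xist, and that of replication genes was 8 without DN2 replicate 2, 10 without DN2 replicate 3 and 4 without the arrays with Xist.

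Cyclins and their inhibitors split by member. Of 25 measured, 8 rose (4 without DN2 replicate 2 and 2 without the arrays with Xist) and 2 fell (1 without DN2 replicate 1 or 3 or without the arrays with Xist). Ccnd1, a cyclin of the G1 phase, was at 9.60, 10.26 and 8.55 in DN1 and at 5.03, 6.32 and 7.02 in DN2. It fell by 3.35 ± 0.44 on the log2 scale (adjusted p = 3.89e-05) while Ccnd3 rose, as given above. Ccne2, a cyclin of the entry into S phase, rose by 1.64 ± 0.36 (adjusted p = 0.00568), from 10.70, 11.01 and 9.55 to 11.92, 11.95 and 12.31.

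Of 22 genes of DNA methylation, its readers and its removal, 3 rose (13.6%) and 1 fell (4.55%), with a median of 0.06. Tet2, an enzyme that oxidises methylated cytosine, was at 10.13, 10.22 and 10.39 in DN1 and at 9.50, 8.68 and 8.72 in DN2. Its groups did not overlap, and it fell by 1.28 ± 0.26 on the log2 scale (adjusted p = 0.00278). Hells, a chromatin remodeller that aids methylation, rose by 0.90 (0.68 and 0.72, not passing, without DN1 replicate 3 or DN2 replicate 3). The methyl-CpG binding protein gene Mbd2 rose by 0.58 (0.43 and 0.57, not passing, without DN1 replicate 3 or DN2 replicate 2), and the insulator protein gene Ctcf by 0.55. With probe sets averaged, Hells (0.71) and Ctcf (0.22) no longer passed. Without the arrays with Xist, 0 members rose and 2 fell. Dnmt1, which copies methylation after replication, overlapped between the groups at 11.07, 11.52 and 12.40 against 12.02, 12.01 and 11.43, with a difference of 0.16 ± 0.28. The differences of the new-methylation enzymes Dnmt3a (-0.59 ± 0.28) and Dnmt3b (-0.46 ± 0.33), of the Dnmt1 cofactor Uhrf1 (0.71 ± 0.31) and of Tet1 (-1.34 ± 0.51) did not pass, and Tet3 was near the floor on all 6 arrays. With 1 of DN1 replicates 1 and 2 or DN2 replicates 1 and 3 left out, the number of members that fell was 3, 2, 2 and 3.

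Immediate early genes were lower in DN2 on average, but with arrays of the 2 groups overlapping in the order of their levels. Of 34 measured, 12 fell and 0 rose, with a median of -1.64. Rgs1, an inhibitor of G protein signalling, was at 12.59, 12.27 and 13.99 in DN1 and at 9.01, 9.50 and 10.15 in DN2, a fall of 3.40 ± 0.44 on the log2 scale (adjusted p = 3.05e-05). Zfp36, which promotes the decay of messenger RNA, read 10.30, 11.63 and 12.03 in DN1 and 6.97, 8.34 and 10.12 in DN2. DN2 replicate 3 came close to DN1 replicate 1 in Zfp36 and lay above it in the mean of the whole list. DN1 replicate 1 was the lowest DN1 array in 31 of the 34 genes and DN2 replicate 3 the highest DN2 array in 33. The count that fell was 19 without DN1 replicate 1 and 21 without DN2 replicate 3, and it was 7, 6, 6 and 6 without DN1 replicate 2, DN1 replicate 3, DN2 replicate 1 and DN2 replicate 2, and 25 without the arrays with Xist. Of 25 interferon response genes, 3 fell (Oas2, Ifit3 and Irf1) and 0 rose, with a median of -0.72. That count was 6 without DN1 replicate 1, 5 without DN2 replicate 3 and 0 without DN2 replicate 1 or 2. Irf1 (-0.53) was also lost without DN1 replicate 2 and Oas2 (-1.99) without DN1 replicate 3. With the mean level of the immediate early genes as a covariate, 626 genes were higher and 749 lower, 924 of them among the 1475 reported. In that fit 13 granulocyte genes were lower, and 21 mitosis genes and 11 replication genes were higher. Besides Rag1 and Rag2, the genes described so far that no longer passed were Ikzf2 (0.55), Tcf12 (0.59), Egr3 (-1.44), Nfatc1 (-1.31), Il7r (2.10), Cd44 (-1.05), Mpo (-1.58), Mbd2 (0.31), Ctcf (0.51), Zfp36 (-1.20), Oas2 (-1.98), Ifit3 (-1.26) and Irf1 (-0.30), and Slamf6 moved to 1.21. Blk, Bank1, Ly86, Mcl1, Sqle and Hsd17b7, described below, no longer passed in that fit either. Zfp36 is itself part of the immediate early mean, so its smaller difference there follows partly from the setting.

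**Figure D4:**
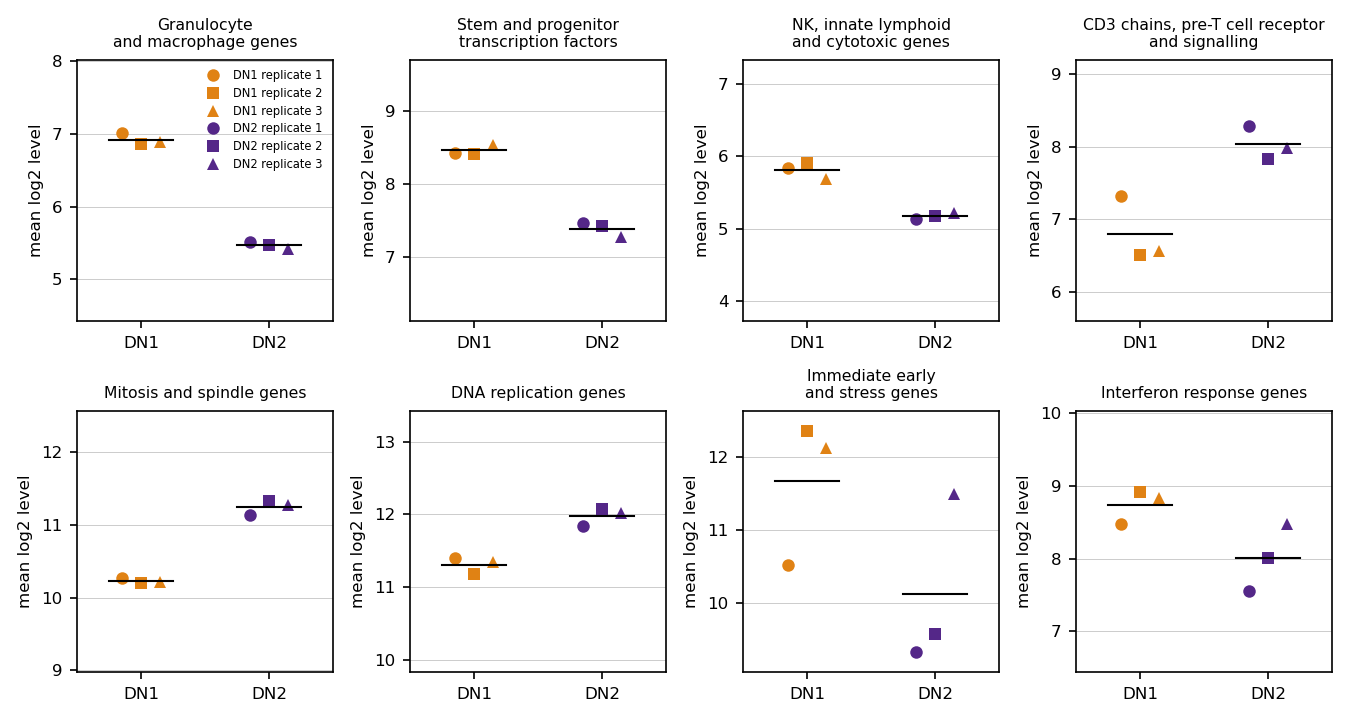
Mean log2 level of 8 gene lists (panels) on each DN1 (orange) and DN2 (purple) array, with a symbol for each replicate and the group mean as a bar; each vertical axis spans the same range of log2 units but not the same levels. Arrays of the 2 groups are separate for the granulocyte, stem cell factor, natural killer, CD3, mitosis and replication lists, while DN2 replicate 3 lies above DN1 replicate 1 for the immediate early list.

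Many markers of other cells that a thymocyte sample could hold were near the floor, and others were not. Near the floor here means a mean within 1 of it in both groups. Of 24 B lineage genes, 13 were near the floor, among them Cd79a, Pax5, Ebf1 and Ms4a1. The mean level of the list was 4.44 to 4.86 in DN1 and 4.60 to 4.67 in DN2. Ighm, Blk and Bank1 were not near the floor, with DN1 means of 12.63, 6.39 and 5.94. Their DN2 means were 11.26, 4.40 and 5.00. Of the 10 other probe sets of Ighm, 1 passed as lower in DN2 and 0 as higher when each was tested on its own. In that list 3 genes fell (6 without DN1 replicate 2, 1 without DN1 replicate 3 or DN2 replicate 1 or 2, and 0 without the arrays with Xist) and 1 rose. The gene that rose was Pou2af1, a coactivator of B cells, by at least 4.95 from 2.80, 2.17 and 2.17 to 7.16, 7.79 and 7.04 (adjusted p = 2.94e-10). For dendritic cells and macrophages, 16 of 31 genes were near the floor, Xcr1, Siglech, C1qa and C1qc among them. Ly86 was not, with means of 7.70 in DN1 and 6.27 in DN2. In that list 3 genes fell (1 without DN1 replicate 2) and 0 rose, and H2-DMa, which loads peptides onto class II molecules, had the largest fall, by 2.74 ± 0.27 on the log2 scale. The list's mean level was 4.71 to 4.87 in DN1 and 4.28 to 4.33 in DN2. For stroma, epithelium and endothelium 16 of 25 genes were near the floor, Foxn1, Krt8 and Cdh5 among them, and the mean level was 3.30 to 3.42 in DN1 and 3.29 to 3.44 in DN2. Pdgfrb of that list was far above the floor in both groups, as given in the last section. In the erythroid and megakaryocyte list 13 of 23 genes were near the floor, Hba-a1, Alas2 and Klf1 among them, while Car2 and Itga2b were not. For mast cells, basophils and eosinophils it was 12 of 16. Among the late thymocyte genes 10 of 23 were near the floor, Cd4, Cd8b1 and Foxp3 among them, while Aqp11 was not. Cpa3, a protease of mast cells, rose by 2.04 ± 0.46 (adjusted p = 0.00757), from 11.59, 10.35 and 11.68 to 13.26, 13.37 and 13.11, while Mcpt4 and Fcer1a of the same list were near the floor.

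Levels in DN3 differed among these genes. Between DN2 and DN3, in the same fit and sharing the DN2 arrays, 16.7% of all genes rose and 14.4% fell. Zbtb16, Fgf3 and Pou2af1 had DN3 means of 3.21, 3.48 and 3.76, beside DN1 means of 2.77, 4.82 and 2.38 and DN2 means of 8.42, 10.94 and 7.33. These 3 genes were singled out after their values were seen. Bcl11b and Il2ra had DN3 means of 14.62 and 13.16, close to those of DN2, and neither changed past the threshold in the second step (adjusted p = 0.786 and 1). Cd3g went on to 14.33 and Themis to 12.03 in DN3. Lyl1, which did not pass between DN1 and DN2, had a DN3 mean of 2.66. The mitosis list turned, with 40 of 43 genes lower in DN3 than in DN2 and 0 higher, as did the replication list, with 32 of 38 lower. The spike-in controls stood at 10.84 to 12.87 on the DN3 arrays and at 2.50 to 2.60 on the DN1 and DN2 arrays. What part this difference in the added controls has in the DN3 values was not tested.

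**Figure D5:**
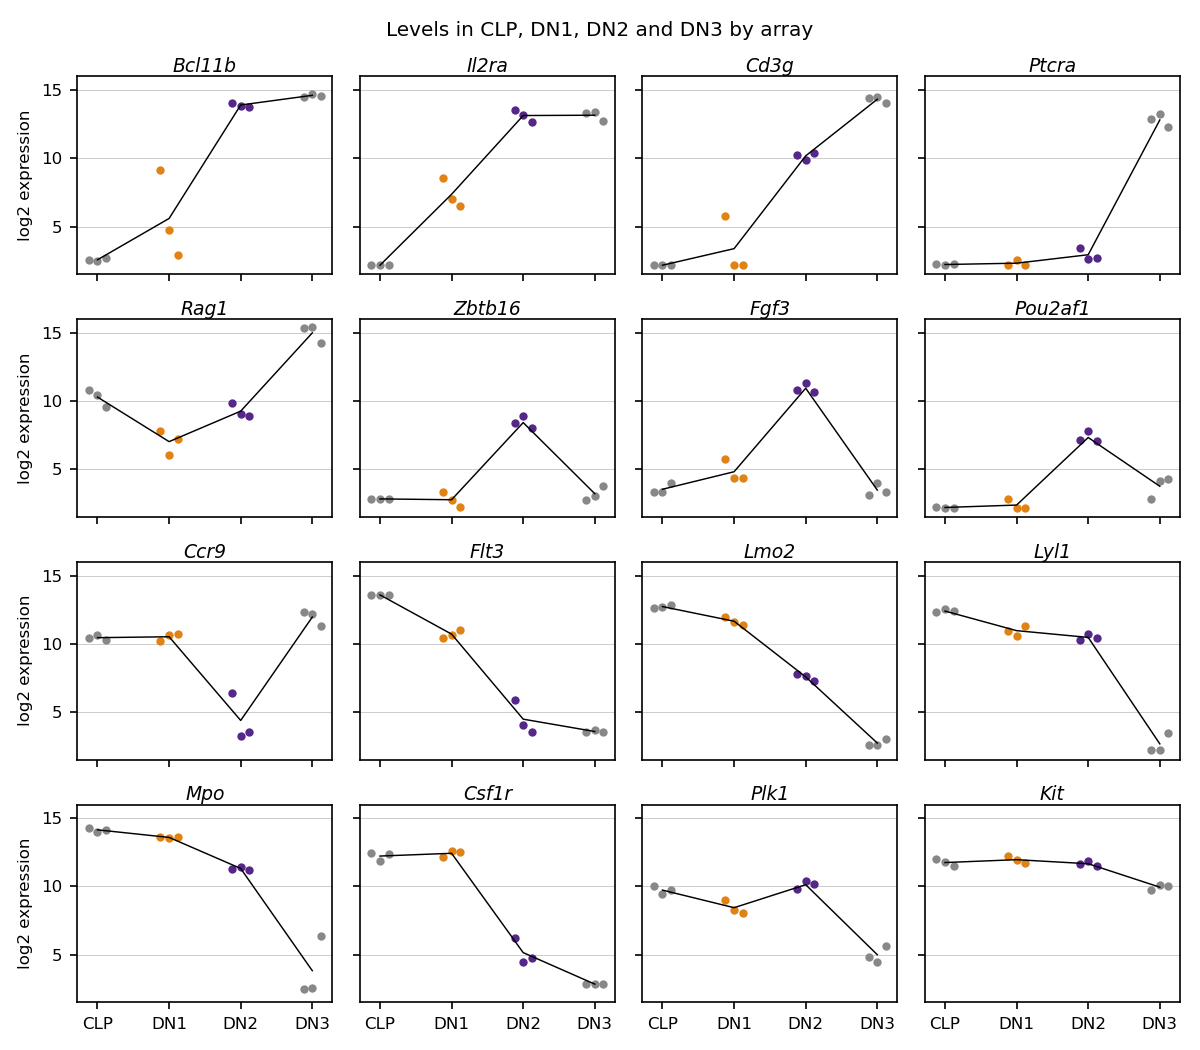
Log2 expression (vertical axis) of 16 genes on each array of CLP, DN1, DN2 and DN3, with lines joining the means of 3 arrays. Bcl11b and Il2ra are high in both DN2 and DN3, Zbtb16, Fgf3 and Pou2af1 are high in DN2 alone of these 4 populations, Ccr9 is low in DN2 alone of them, and Ptcra is high in DN3 alone of them.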

How the data were processed

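Messenger RNA of 26 samples was measured on Affymetrix mouse arrays, after Trizol extraction and biotin labelling per the labels' protocols. The authors deposited a table of log2 expression values for 45101 probe sets. The normalization and summarization behind those log2 values are not given in the sources used here, and they were used as deposited. Groups and replicate numbers come from the sample titles.

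Probe sets named with 1 gene (34958) entered, and each gene was represented by its brightest one, judged by the mean of the 26 arrays, which gave 18194 genes. Probe sets with several genes (932) or none (9211) were left out, as were list members that lack a probe set of their own. All 26 arrays were fitted with limma 3.58.1 in R 4.3.3 (lmFit and eBayes, no term but the population, 18 residual degrees of freedom), two-sided, with Benjamini-Hochberg adjustment over all genes and a threshold of 0.05. No filter on dim genes was used. The number of arrays limits the precision. In data simulated for DN2 against DN1 on 18194 genes, 34 of 100 genes changed by 1 on the log2 scale and 96 of 100 changed by 2 were recovered, with 12 false calls. The simulation gave each gene the same spread in all populations, whereas DN1 arrays varied more than DN2 arrays for most genes. Its changed genes were neither near the floor nor among the brightest in DN1. Recovery and false calls in the real comparison may therefore differ.

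Genes are described by counts and medians of 27 lists. The members and lists were chosen with earlier results of these data known. The rule for naming genes takes up to 15 rises and 15 falls, the largest among genes that passed without overlap and with a mean of at least 5.31 in the higher group, up to 4 members per list and direction, and a fixed set including Bcl11b, Il2ra, Kit, Mpo, Rag1 and the Dnmt and Tet genes. Only part of the genes it allows is described. Defining markers at the floor are named besides, chosen after their values were seen. Alternatives covered the normalization, the choice of probe set, the filter, the arrays fitted, covariates, array weights, leaving out each array, and the replicate number as a block. Promoter stretches come from RefSeq for build GRCm38.p6.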

Additional observations from a re-analysis of the deposited data

How the results depend on the processing

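Against 1475 genes reported (726 higher, 749 lower), limma gave 273 (116 and 157) with the DN1 and DN2 arrays alone, and 724 (316 and 408) when genes had also to exceed log2 6 on at least 3 arrays. With the DN1, DN2 and DN3 arrays it gave 542 (243 and 299), with array weights 963 (387 and 576), with a threshold of 0.01 822 (378 and 444), with a difference of at least 1 required 908 (364 and 544), and with every probe set tested 2186 (1117 and 1069). The share of higher genes was 49.2%, 38.9% without the arrays with Xist and 40.2% with array weights. Leaving out each array in turn gave 1052 to 1501 genes, 481 to 741 higher and 571 to 866 lower. Other counts stayed within 1.5 times of those reported, quantile normalization and averaged probe sets included. Same-numbered samples did not deviate together (correlations of 0.16, -0.32 and -0.05 between deviations from the group means for numbers 1, 2 and 3), so the numbers are not read as pairing. With the replicate number as a block, limma called 0 genes (0 higher, 0 lower) on the 6 arrays, 1854 of them at an unadjusted p under 0.05, and 1217 with all arrays. Signs turned for Tet3 (4.92e-04 with the Gapdh covariate, 0.0475 with the immediate early covariate), for Dnmt1 between leaving out DN1 replicate 1 (-0.14) and DN1 replicate 3 (0.52), and, without the arrays with Xist, for Col3a1 (-0.0355), Cd81 (0.58), Dnmt3a (0.10) and Dnmt3b (0.54). The cause was not tested. The alternatives that leave out arrays by Xist or X and Y genes, that join the filter to the 6 arrays, or that use the block on all arrays were chosen after seeing the data. Levels near the floor carry no order.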

Other observations

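Some genes of metabolism and survival moved between DN1 and DN2 (limma, adjusted p under 0.05). Of all genes, 3.99% were higher and 4.12% lower. Of 27 genes of cholesterol and fatty acid synthesis, 3 rose (11.1%) and 0 fell, with a median of 0.30. Idi1, an enzyme of isoprenoid synthesis, was at 11.48, 11.04 and 10.96 in DN1 and at 12.40, 12.48 and 12.21 in DN2, without overlap. The other two were Sqle and Hsd17b7, and the count was 1 without any single DN2 replicate. When single arrays were left out in turn, Sqle passed only without DN1 replicate 1, and Hsd17b7 did not pass without any of the 6. Of 22 glycolysis genes, Pfkp, a phosphofructokinase, rose by 1.52 ± 0.16, and the glucose transporter gene Slc2a3 and the hexokinase gene Hk3 fell by 1.18 and 1.53 on the log2 scale. With probe sets averaged these differences were 0.63, -0.50 and -0.79, and without the arrays with Xist that of Slc2a3 was -2.05. Of 19 genes of the Bcl2 family and death receptors, 3 fell (15.8%) and 0 rose. Fasl, a ligand that triggers cell death, was the largest of these falls, from 11.58, 11.26 and 11.52 to 10.18, 10.13 and 9.17, while Birc3 and Mcl1, inhibitors of cell death, fell by 0.93 and 0.57 on the log2 scale. The groups overlapped in none of these 3 genes. The call of Mcl1 was lost without DN1 replicate 2 (-0.51) or 3 (-0.46) or DN2 replicate 1 (-0.52) or 2 (-0.53), with array weights (-0.46) and with the immediate early covariate (-0.42). Without the arrays with Xist, Idi1 (1.36), Sqle (1.57), Hsd17b7 (0.85) and Birc3 (-0.71) no longer passed, and Fasl was at -1.09.

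Among 23 late and mature thymocyte genes, 4 fell (1 without DN2 replicate 2) and 1 rose. The rise was that of Aqp11, a water channel gene, from 5.94, 5.33 and 5.18 in DN1 to 9.84, 9.64 and 9.60 in DN2, a difference of 4.21, or 2.49 over its averaged probe sets. Without the arrays with Xist 2 genes of this list rose. Of 23 erythroid and megakaryocyte genes, Car2, a carbonic anhydrase, fell from 12.68, 12.62 and 12.20 to 9.74, 9.90 and 9.98, and Itga2b rose (2 genes of the list fell without the arrays with Xist). Of 25 genes of stroma, epithelium and endothelium, the growth factor receptor gene Pdgfrb fell by 1.25 ± 0.25 on the log2 scale from a mean of 13.50, and Col3a1 passed as higher while near the floor on all 6 arrays. Pdgfrb did not pass with array weights (-1.20) or without the arrays with Xist (-0.996), where 3 genes of the list fell and 0 rose. When single arrays were left out, Col3a1 passed only without DN2 replicate 1.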
